A study of Homo sapiens with 18 samples.

Results

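The genes described here code for the factors that copy DNA: the origin recognition complex, the proteins that load and license the MCM helicase, the helicase and its activators, the replicative polymerases, the sliding clamp with its loader, the single-strand binding protein RPA, the enzymes that finish the lagging strand and ribonucleotide reductase. They were chosen by name, 44 genes in all. A peak of accessible chromatin was counted for a gene when its centre lay inside the span of the gene in RefSeq (GRCh38.p14) or, failing that, when the gene was the nearest protein-coding gene within 50 kb. By this rule 41 of the 44 genes held 149 of the 71318 peaks of the series, from 1 peak for ORC2, ORC6, CDC6, CDC45, MCM10 and RFC5 to 13 for MCM9. MCM2, MCM7 and FEN1 held none, because the peaks at their starts belong by this rule to neighbouring genes. Those peaks are described with the neighbours.

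The assay was Omni-ATAC-seq, a form of transposase tagging that marks open chromatin, and the cells were Raji, an established Burkitt lymphoma line of B-cell origin with the genotype label Smarca4+/+. The 6 groups were cells of high and of low GFP level at 24, 48 and 72 h. The series concerns removal, with an auxin-inducible degron, of SMARCA4 (BRG1), a catalytic subunit of BAF, which remodels nucleosomes. The meaning of the GFP signal is not given in the labels, nor is the GFP level at which SMARCA4 is lost, so groups are named by GFP level alone. Each group has 3 deposited columns, which the labels call replicates 1 to 3. Columns of a group differed by 1.78 to 1.81 times the counting variance, less than columns differing in time alone or in GFP level alone. Pairs differing in both were not measured. Whether the columns of a group are separate libraries is not known. The columns of a group were summed to 1 library, so each GFP level had 3 libraries, 1 for each time. Taken as separate libraries the columns gave 63 peaks called higher in GFP low in place of 30.

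Replication is prepared in G1, when the origin recognition complex, CDC6 and CDT1 load pairs of MCM2 to MCM7 rings on DNA, and geminin blocks CDT1 afterwards so that no origin is used again in the same cycle. In S phase CDC45 and the GINS complex join the ring to make the active helicase, primase starts each strand, and polymerases delta and epsilon extend it while held by PCNA. Many of these genes are transcribed at the G1/S transition through E2F factors bound near their starts. B-cell lymphoma lines divide rapidly and use this machinery continuously.

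The starts of 6 of these genes are shown here as sequence. They were chosen from the genes described in full below as 5 whose start region was more accessible in GFP low cells, at least by the scaling used here, and CDT1, the single gene with a lower value at its tallest gene-end peak. Each line gives the 250 bases before the outermost start in RefSeq (GRCh38.p14), read 5′ to 3′ on the gene's strand: chr6:52284743-52284992 (minus strand) for MCM3, chr20:5126623-5126872 (minus) for PCNA, chr13:33817899-33818148 (plus) for RFC3, chr19:48170345-48170594 (minus) for LIG1, chr11:4094435-4094684 (plus) for RRM1 and chr16:88803539-88803788 (plus) for CDT1. Capitals mark matches on either strand to the E2F consensus TTTNNCGC and to the CCAAT box.
MCM3: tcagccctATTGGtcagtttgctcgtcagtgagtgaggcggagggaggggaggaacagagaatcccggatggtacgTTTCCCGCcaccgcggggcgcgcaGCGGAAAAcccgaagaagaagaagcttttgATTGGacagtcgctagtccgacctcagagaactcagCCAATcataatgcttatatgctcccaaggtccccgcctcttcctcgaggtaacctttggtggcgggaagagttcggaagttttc
PCNA: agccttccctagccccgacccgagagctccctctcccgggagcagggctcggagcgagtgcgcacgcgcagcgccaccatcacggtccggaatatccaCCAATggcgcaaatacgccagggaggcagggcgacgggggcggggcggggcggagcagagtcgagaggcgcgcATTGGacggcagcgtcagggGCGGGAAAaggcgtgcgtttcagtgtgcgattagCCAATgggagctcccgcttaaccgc
RFC3: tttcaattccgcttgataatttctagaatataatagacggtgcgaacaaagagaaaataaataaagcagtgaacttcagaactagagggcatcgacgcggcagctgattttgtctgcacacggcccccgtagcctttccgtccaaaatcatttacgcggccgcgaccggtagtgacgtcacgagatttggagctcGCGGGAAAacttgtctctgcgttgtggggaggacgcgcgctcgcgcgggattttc
LIG1: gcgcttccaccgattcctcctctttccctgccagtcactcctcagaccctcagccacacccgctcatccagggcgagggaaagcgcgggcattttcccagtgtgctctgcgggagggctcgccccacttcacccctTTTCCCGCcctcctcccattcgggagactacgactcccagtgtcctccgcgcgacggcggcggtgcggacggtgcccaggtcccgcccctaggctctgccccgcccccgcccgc
RRM1: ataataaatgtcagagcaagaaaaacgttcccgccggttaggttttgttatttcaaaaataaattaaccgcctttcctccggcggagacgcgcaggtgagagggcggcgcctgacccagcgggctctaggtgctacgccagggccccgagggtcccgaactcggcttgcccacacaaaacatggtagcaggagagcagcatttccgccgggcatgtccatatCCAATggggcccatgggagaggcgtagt
CDT1: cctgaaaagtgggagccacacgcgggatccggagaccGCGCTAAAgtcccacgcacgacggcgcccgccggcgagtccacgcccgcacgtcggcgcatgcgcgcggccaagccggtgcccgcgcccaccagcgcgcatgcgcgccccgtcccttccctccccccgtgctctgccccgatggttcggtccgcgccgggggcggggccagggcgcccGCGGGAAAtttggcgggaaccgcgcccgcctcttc
The MCM3 stretch held 2 E2F matches and 3 CCAAT boxes, and that of PCNA held 1 and 3. The PCNA stretch lies outside the PCNA peak given in full below. It lies mostly under the peak over the PCNA start that was assigned to CDS2. RFC3 and LIG1 had 1 E2F match and no CCAAT box, RRM1 had 1 CCAAT box and no E2F match, and CDT1 had 2 E2F matches and no CCAAT box. A match is a description of the letters and not evidence of binding.

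The reference table held starts for 38 of the 44 genes, and windows from 250 bases before to 50 bases after the outermost start were searched on both strands. TTTNNCGC was found in 20 of the 38 windows (52.6%), compared with 8.93% of the windows of 15843 protein-coding genes. CCAAT was found in 22 (57.9%, all genes 36.4%) and the GC box GGGCGG in 28 (73.7%, all genes 58.3%). The ETS core CCGGAAG was in 6 (15.8%, all genes 14.2%). The CHR element TTTGAA, known from genes expressed late in the cycle, was in 1, that of RRM1 (2.63%, all genes 12.2%). Windows under a peak, 37 of these and 7443 over all genes, are the closer comparison. There TTTNNCGC was in 54.1% (all genes 12.1%) and CCAAT in 59.5% (all genes 39.7%). The GC box was in 75.7% (all genes 73.0%), the ETS core in 16.2% (all genes 23.5%) and the CHR element in 2.70% (all genes 9.81%). Windows can hold several of these motifs, and a palindromic E2F site counts on both strands.

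A peak lay over 37 of the 38 windows, whichever gene the peak was assigned to; PRIM2 was without one, because its starts in the table lie inside the longer gene span. Levels are given as CPM, counts scaled to library size after TMM normalisation. GFP low was compared with GFP high over the 3 times by the quasi-likelihood test of edgeR, with time in the model, and a peak is called higher or lower here when its Benjamini-Hochberg adjusted p over all 71318 peaks was under 0.05. Of the 37 start peaks 13 (35.1%) were called higher in GFP low and 0 lower, compared with 51.1% higher and 1.56% lower of 7443 start peaks over all protein-coding genes. Their median log2 change was 0.19, and that of all start peaks was 0.22. Start peaks of replication genes with an E2F match were called higher in 8 of 20 and those without one in 5 of 17, with median changes of 0.23 and 0.16. Over all genes the shares were 53.7% with the match and 50.7% without it.

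The Raji identity was read from gene-end peaks of marker genes. Among B-cell markers 6 had such a peak, including MS4A1 at a mean of 79.0 CPM, EBF1 at 43.4 CPM and PAX5 at 26.9 CPM, whereas BLK had none. The summed level of these 11 peaks was 261.5 to 274 CPM in GFP high and 272 to 291 CPM in GFP low libraries. Of the 11 peaks 0 were called, where 34.4% of all gene-end peaks were called higher. Of 6 T-cell markers CD3E, CD3D and CD2 had gene-end peaks, summing to 71.0 to 72.8 CPM in GFP high and 61.0 to 64.1 CPM in GFP low; CD3G, CD5 and CD7 had none. Of these 4 peaks 3 were called lower in GFP low, 1 at each of the 3 genes, with CD3D changed by -0.79 ± 0.17 (adjusted p = 0.000678 by edgeR). The tallest CD3E peak, at a mean of 38.1 CPM, was not called (-0.05 ± 0.08, adjusted p = 0.662 by edgeR). Of all gene-end peaks 4.24% were called lower. Of 5 myeloid markers ITGAM alone had gene-end peaks, at 11.9 to 13.5 CPM in GFP high and 8.35 to 11.04 CPM in GFP low, and CD14, LYZ, CSF1R and MPO had none; 1 of its 2 peaks was called lower. The T-cell and myeloid sums did not overlap between the GFP levels, and their part in the changes below was not tested. Libraries held 22908652 to 29790483 counts. Nothing says that they came from separate cultures, so p-values measure the spread between these libraries, which may be technical. In bulk chromatin, fewer cells with an open site and less opening per cell cannot be told apart.

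Over the 3 times, 30 of the 149 peaks were called higher in GFP low and 16 were called lower. That is 20.1% and 10.7%, where all peaks of the series gave 13.4% and 25.4%. Position divided the peaks; distances are given to the nearer end of the gene unless a start is named. Within 1 kb of an end of any protein-coding gene, start or finish, lay 62 of the 149 (41.6%), compared with 19.2% of all peaks. Of these gene-end peaks 19 (30.6%) were called higher and 3 (4.84%) lower, close to the 34.4% and 4.24% of all gene-end peaks, and the median log2 change was 0.17 beside 0.18. The 3 lower ones lay near ends of GINS4 (-0.60), CDT1 (-0.43) and RPA2 (-0.35). Away from gene ends 11 of 87 peaks (12.6%) were called higher and 13 (14.9%) lower, where all such peaks gave 8.43% and 30.5%. No test was made of these differences in share.

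The calls on the higher side depended on the scaling, the tool and the times, and those on the lower side on the tool and the times. With loess scaling, which removes any trend of the change with peak height, 5 gene-end peaks of replication genes were called higher and 4 lower, next to 9.85% and 4.21% of all gene-end peaks. The 5 lay at MCM5, POLE2, PCNA, LIG1 and RRM2, and the 4 at CDT1, GINS4, RPA3 and MCM9. The median change of the 62 peaks then came to 0.058. DESeq2 called 12 of the 149 peaks higher and 10 lower, next to 5.22% and 17.96% of all peaks. Without the 72 h pair of libraries the counts came to 5 and 10, with 2 gene-end peaks higher, next to 3.51% and 18.8% of all peaks. The median change of the gene-end peaks was 0.171 with DESeq2 and 0.167 without the 72 h pair, against 0.167 by edgeR on all libraries.

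**Figure D1:**
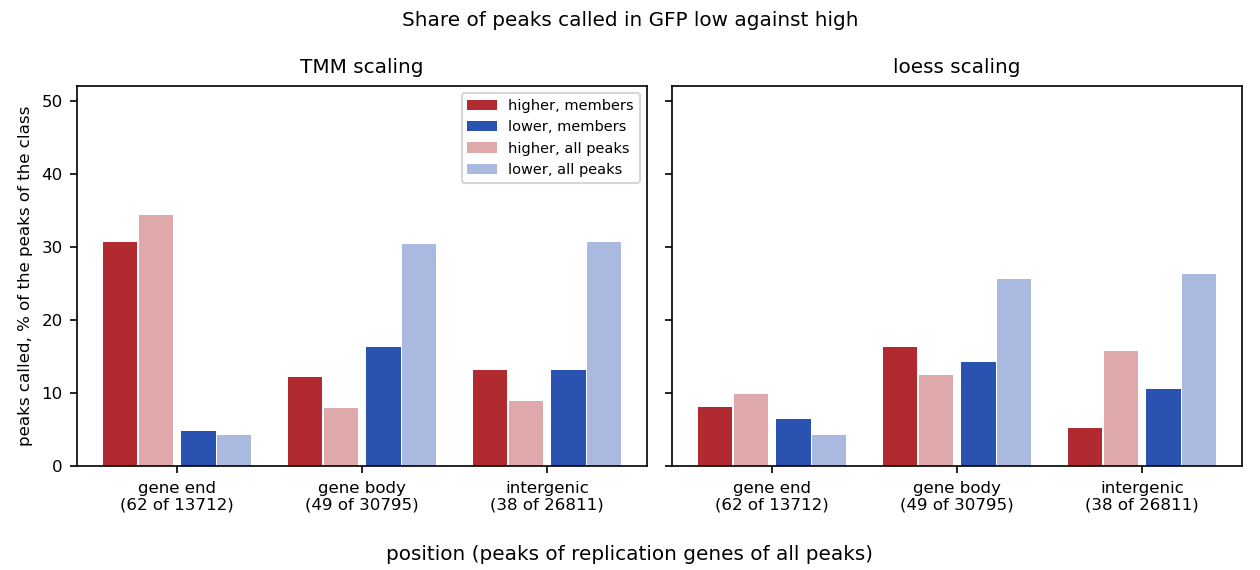
Percent of peaks called higher (red) or lower (blue) in GFP low, by position, for the peaks of replication genes (dark) and for all peaks (pale), with TMM scaling on the left and loess scaling on the right. At gene ends the dark and pale bars stood at similar heights in each panel, 30.6% and 34.4% higher with TMM scaling, and the lower bars away from gene ends were shorter for replication genes.

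The share of gene-end peaks called higher rose with peak height. With all peaks ranked by mean CPM and divided into 10 equal bins, the top bin held 25 gene-end peaks of replication genes, and 11 of them (44%) were called higher, compared with 70.6% of all gene-end peaks of that bin. In the next bin it was 6 of 18 (33.3%, all 27.3%). The median log2 change of these gene-end peaks was 0.16 in the top bin, 0.24 in the next and 0.058 in the other bins. Over all gene-end peaks it was 0.22, 0.20 and 0.073. The plot of change against level shows the tall peaks above 0 in a narrow band and the low peaks on both sides. The GFP levels did not overlap, with every GFP low library above every GFP high library, in 29 of the 62 gene-end peaks (46.8%). The same held for 43.1% of all gene-end peaks.

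**Figure D2:**
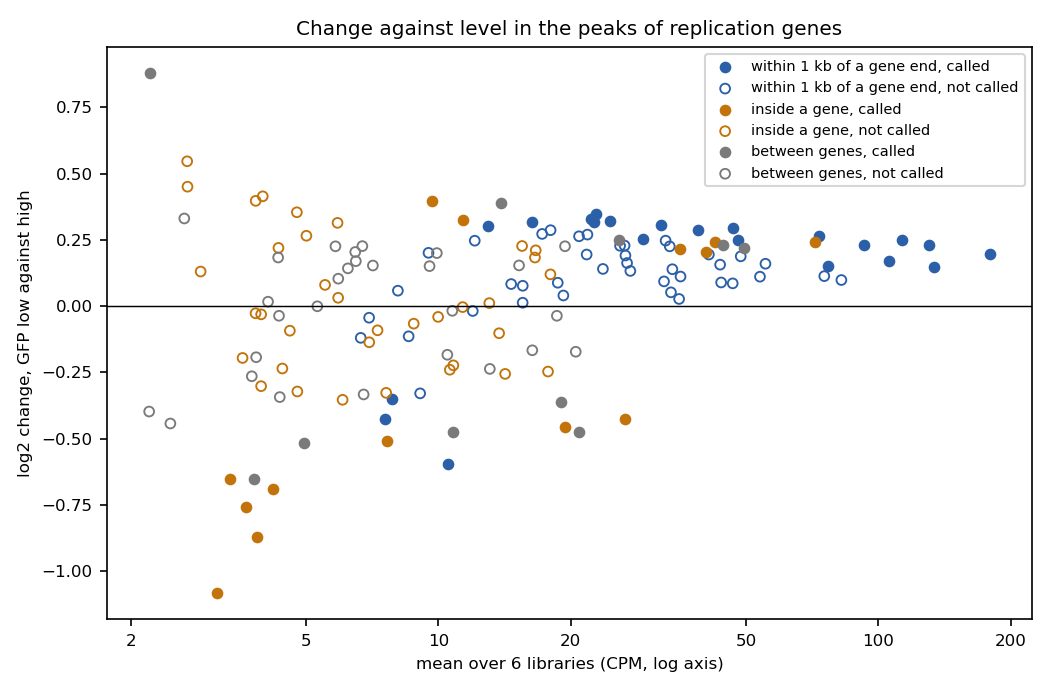
Log2 change in GFP low against GFP high over the 3 times (vertical) against the mean of the 6 libraries in CPM (horizontal, log axis) for the 149 peaks of replication genes. Filled points are called; the called gene-end peaks lie between -0.60 and 0.35, and the called falls inside genes reach -1.08.

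For 36 of the 41 genes with a peak, 1 or more peaks lay within 1 kb of an end of the gene itself, and the tallest of these stands for the gene below. ORC1, ORC3, RPA1, RPA3 and MCM8 had none. Some of the peaks given in full lay also within 1 kb of an end of a neighbouring gene. These were the peaks of ORC4 (MBD5), MCM4 (PRKDC), PRIM2 (RAB23), PCNA (CDS2) and LIG1 (ZSWIM9). These 36 peaks ranged from 9.09 CPM for CDT1 to 134 CPM for MCM9 with a median of 33.7 CPM. Of them 14 were called higher and 0 lower, next to 34.4% and 4.24% of all gene-end peaks. These 36 were chosen for height, which went with the share called. Start peaks of all protein-coding genes gave 51.1% and 1.56%. All gene-end peaks of the top bin and the next together gave 53.6% and 0.86%. Log2 changes ran from -0.33 to 0.35 with a median of 0.23, and 35 of 36 were above 0, CDT1 being the exception. With loess scaling the median was 0.088, 3 were called higher (MCM5, PCNA and LIG1) and MCM9 was called lower.

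**Figure D3:**
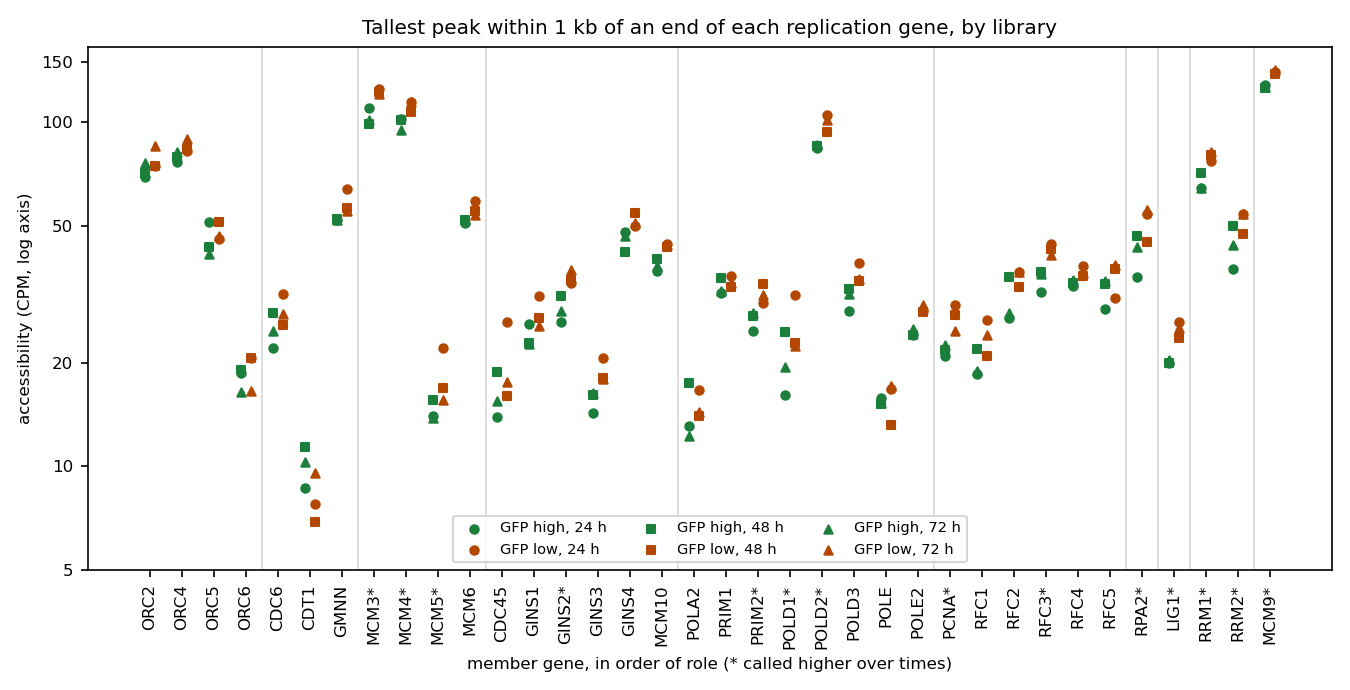
Accessibility in CPM (log axis) of the tallest peak within 1 kb of an end of each replication gene, in the 3 GFP high (green) and 3 GFP low (orange) libraries, with the time given by the marker shape. Genes are in order of role, grey lines part the roles, and an asterisk marks a peak called higher over times; the orange points stand above the green ones for most genes, by small margins, and below them for CDT1.

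The origin recognition complex marks the sites where replication can begin. None of the tallest own-end peaks of its 4 genes that have one was called, 0 in either direction, with changes from 0.09 to 0.11. The smallest unadjusted p among them belonged to ORC2 and ORC4, subunits of the complex. The ORC2 peak (chromosome 2, 200963168 to 200963668, 0.2 kb inside the start) stood at 69.4, 71.2 and 76.4 CPM in GFP high at 24, 48 and 72 h and at 74.9, 74.6 and 85.5 CPM in GFP low. The levels overlapped, and the difference on the log2 scale was 0.11 ± 0.06 (SE; adjusted p = 0.128 by edgeR), or -0.10 with loess scaling. At ORC4 (chromosome 2, 148020665 to 148021165) GFP high gave 76.9, 79.6 and 82.3 CPM and GFP low 82.7, 83.5 and 89.5 CPM. Here GFP low was above GFP high throughout, but the change of 0.10 ± 0.06 missed the threshold (adjusted p = 0.167) and was -0.12 with loess scaling. A weaker ORC4 peak 31.6 kb inside the gene was called higher (0.33 ± 0.12, adjusted p = 0.0307). ORC1, the largest subunit, has its start peak inside its RefSeq span, which reaches further out, at a mean of 43.7 CPM and a change of 0.16 ± 0.08 (adjusted p = 0.119).

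The loading and licensing genes are CDC6 and CDT1, which load the helicase, and GMNN, which codes for geminin, the inhibitor of CDT1. None of their 3 tallest own-end peaks was called. The CDT1 start peak (chromosome 16, 88803469 to 88803969) was the weakest of the 36, at 8.64, 11.4 and 10.3 CPM in GFP high and 7.75, 6.90 and 9.58 CPM in GFP low. It was lower in GFP low within each time, while the levels overlapped across times, and the change was -0.33 ± 0.14 (adjusted p = 0.0587). A further CDT1 peak 0.9 kb inside the gene (chromosome 16, 88804441 to 88804941) held 8.77, 7.69 and 9.52 CPM in GFP high and 6.47, 6.01 and 6.83 CPM in GFP low. These did not overlap, and this peak was called lower (-0.43 ± 0.13, adjusted p = 0.0135; loess -0.34). The GMNN start peak (chromosome 6, 24774658 to 24775158) gave 52.1, 52.5 and 52.1 CPM in GFP high and 64.0, 56.3 and 55.2 CPM in GFP low. GFP low was above GFP high at every time, and the change was 0.16 ± 0.07 (adjusted p = 0.0735; loess -0.01).

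MCM2 to MCM7 form the ring of the replicative helicase, and 4 of the 6 had an own-end peak; those of MCM3, MCM4 and MCM5 were called higher and that of MCM6 was not. The MCM3 start peak (chromosome 6, 52284593 to 52285093) was at 110.5, 99.1 and 101.4 CPM in GFP high and at 125, 123 and 121 CPM in GFP low. All GFP low libraries stood above all GFP high libraries, with means of 123 ± 2.31 and 104 ± 5.98 CPM (SD over times, n = 3). This amounts to 0.25 ± 0.05 on the log2 scale (adjusted p = 0.000493 by edgeR), and it was -0.01 with loess scaling. The MCM4 peak gave 102, 102 and 94.9 CPM in GFP high and 115, 107 and 114 CPM in GFP low. It too showed no overlap, with a change of 0.17 ± 0.05 (adjusted p = 0.015; loess -0.08).

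The loci of MCM3 and MCM5 held called peaks of both directions; these loci, and those of GINS4, PCNA and RRM2 below, were picked out after their values were seen. A peak 21.4 kb upstream of MCM3 (chromosome 6, 52305845 to 52306345) fell from 23.9, 26.2 and 22.7 CPM in GFP high to 17.2, 18.4 and 16.7 CPM in GFP low, without overlap. Its change was -0.48 ± 0.11 (adjusted p = 0.00106; loess -0.51). Another 12.1 kb upstream changed by -0.36 ± 0.12 (adjusted p = 0.0204), with levels that overlapped. At MCM5 the own-end peak (chromosome 22, 35399759 to 35400259) held 14.0, 15.6 and 13.8 CPM in GFP high and 22.02, 16.9 and 15.6 CPM in GFP low. It was called higher (0.32 ± 0.12, adjusted p = 0.0405; loess 0.33). A peak 10.2 kb inside MCM5 held 23.0, 21.4 and 22.7 CPM in GFP high and 16.2, 14.9 and 17.9 CPM in GFP low, without overlap, and was called lower (-0.45 ± 0.11, adjusted p = 0.00196; loess -0.47).

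**Figure D4:**
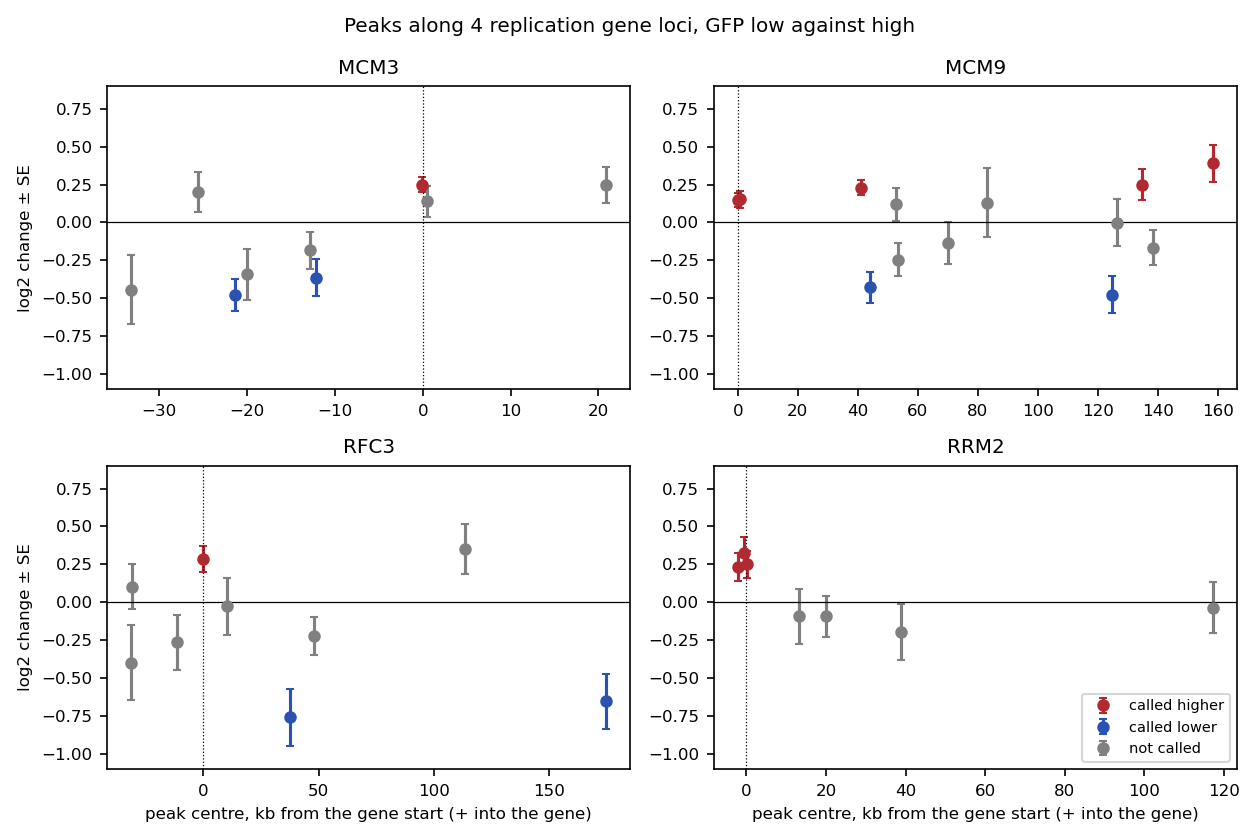
Log2 change with its SE in GFP low against GFP high for every peak counted for MCM3, MCM9, RFC3 and RRM2, against the distance of the peak centre from the outermost gene start in kb, positive into the gene. Peaks at the starts (dotted line) were called higher at all 4 loci with TMM scaling, whereas the called falls at MCM3, MCM9 and RFC3 lay 12.1 kb or more away.

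Helicase activation needs CDC45, the 4 GINS proteins and MCM10. Of their 6 tallest own-end peaks, that of GINS2 was called higher; the changes ran from 0.19 to 0.31. The GINS2 start peak (chromosome 16, 85688803 to 85689303) held 26.2, 31.3 and 28.3 CPM in GFP high and 34.2, 34.7 and 37.2 CPM in GFP low. No GFP low library reached down to the GFP high range, and the change was 0.31 ± 0.09 (adjusted p = 0.0108; loess 0.21, not called). MCM10 (chromosome 10, 13161197 to 13161697) gave 37.1, 40.0 and 38.2 CPM in GFP high and 44.3, 43.5 and 44.1 CPM in GFP low. These did not overlap either, but the change of 0.19 ± 0.08 missed the threshold (adjusted p = 0.0539; loess 0.07). GINS4 carried opposite calls at nearby peaks: one 2.2 kb inside the gene was higher (0.40 ± 0.12, adjusted p = 0.0131; loess 0.47) and one 0.2 kb outside an end was lower (-0.60 ± 0.12, adjusted p = 0.000606; loess -0.53). The latter went from 13.2, 11.4 and 13.3 CPM in GFP high to 8.63, 8.71 and 7.71 CPM in GFP low.

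The polymerase and primase genes code for the subunits of primase and of polymerases alpha, delta and epsilon. Of 8 tallest own-end peaks 3 were called higher, those of PRIM2, POLD1 and POLD2. POLD2, an accessory subunit of polymerase delta, had the tallest (chromosome 7, 44123383 to 44123883). It stood at 84.5, 85.5 and 85.9 CPM in GFP high and at 105, 93.6 and 102 CPM in GFP low, without overlap. The change was 0.23 ± 0.06 (adjusted p = 0.00241) and -0.01 with loess scaling. The PRIM2 peak, at the large primase subunit (chromosome 6, 57221395 to 57221895), held 24.8, 27.3 and 27.9 CPM in GFP high and 29.9, 34.0 and 31.4 CPM in GFP low. Again the levels did not overlap, and the change was 0.25 ± 0.09 (adjusted p = 0.0367; loess 0.17, not called). This peak lay at -93.2 kb from the outermost listed PRIM2 start (minus is upstream), and within 1 kb of an end of RAB23. POLD1, the catalytic subunit of polymerase delta, changed by 0.35 ± 0.14 with an adjusted p of 0.0499 and with levels that overlapped.

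PCNA is the sliding clamp and RFC1 to RFC5 load it. Of their 6 tallest own-end peaks 2 were called higher, those of PCNA and RFC3. The PCNA peak 0.3 kb inside the start (chromosome 20, 5126081 to 5126581) held 21.0, 21.8 and 22.5 CPM in GFP high and 29.5, 27.6 and 24.7 CPM in GFP low. There was no overlap, and the change was 0.32 ± 0.11 (adjusted p = 0.0183; loess 0.26, still called). All 3 PCNA peaks were called higher: a taller one 5.1 kb inside the gene gave 67.4, 67.3 and 62.8 CPM in GFP high and 78.7, 79.9 and 74.9 CPM in GFP low (0.24 ± 0.06, adjusted p = 0.00269; loess 0.04), and the third changed by 0.24 ± 0.08 (adjusted p = 0.0193; loess 0.11). At RFC3 (chromosome 13, 33817857 to 33818357) the start peak held 32.0, 36.8 and 36.4 CPM in GFP high and 44.4, 42.9 and 41.1 CPM in GFP low. It did not overlap and changed by 0.29 ± 0.08 (adjusted p = 0.00994; loess 0.17, not called).

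RPA coats single-stranded DNA behind the helicase. RPA2 was the single RPA gene with an own-end peak by the rule. Its tallest (chromosome 1, 27914388 to 27914888) held 35.5, 46.8 and 43.5 CPM in GFP high and 54.3, 44.8 and 55.5 CPM in GFP low. The levels overlapped because of the 48 h pair, and the peak was called higher (0.30 ± 0.09, adjusted p = 0.0146; loess 0.15, not called). The peak at the other RPA2 end was called lower (-0.35 ± 0.14, adjusted p = 0.0488; loess -0.26, not called). The tallest peak of all 149 lay inside RPA3 and within 1 kb of an end of the overlapping gene UMAD1, at a mean of 179 CPM; it was called higher (0.20 ± 0.04, adjusted p = 0.00101) but lower with loess scaling (-0.12).

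LIG1 joins the fragments of the lagging strand. Its start peak (chromosome 19, 48170126 to 48170626) held 19.95, 19.9 and 20.4 CPM in GFP high and 26.3, 23.7 and 25.2 CPM in GFP low. The GFP high libraries were nearly equal and all below the GFP low ones. The change was 0.32 ± 0.10 (adjusted p = 0.018; loess 0.27, still called).

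RRM1 and RRM2 are the subunits of ribonucleotide reductase, which makes the deoxyribonucleotides for replication, and both tallest own-end peaks were called higher. RRM1 (chromosome 11, 4094475 to 4094975) gave 64.6, 71.2 and 64.3 CPM in GFP high and 77.5, 80.6 and 82.1 CPM in GFP low. There was no overlap, and the change was 0.26 ± 0.06 (adjusted p = 0.0015; loess 0.06, not called). RRM2 (chromosome 2, 10122374 to 10122874) gave 37.5, 49.997 and 43.9 CPM in GFP high and 54.3, 47.4 and 54.1 CPM in GFP low. Here the 48 h pair ran the other way and the levels overlapped; the change was 0.25 ± 0.09 (adjusted p = 0.0293; loess 0.10, not called). The peak 0.5 kb upstream of RRM2 was separated without overlap and was called higher with either scaling (0.33 ± 0.11, adjusted p = 0.0175; loess 0.28).

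MCM8 and MCM9 form a helicase used in DNA repair and not in the main ring. MCM9 had the most peaks and the tallest start peak (chromosome 6, 118934872 to 118935372), at 128, 126 and 126 CPM in GFP high and 140.2, 138 and 142 CPM in GFP low. The libraries of the 2 GFP levels were tightly grouped and apart, and the change was 0.15 ± 0.05 (adjusted p = 0.016). With loess scaling this peak was called lower, at -0.13. The start of ASF1A, a histone chaperone gene, lies inside MCM9, and the MCM9 peak near it was called higher (0.23 ± 0.05, adjusted p = 0.00051; loess -0.05). Of the 13 MCM9 peaks 5 were called higher and 2 lower with TMM scaling, next to 13.4% and 25.4% of all peaks.

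Away from gene ends 11 peaks were called higher and 13 lower, where all such peaks gave 8.43% and 30.5%. The 8 called peaks there with the largest changes, 1 per gene, comprised 7 falls and 1 rise, at low levels. The largest fall lay 10.5 kb inside RFC2 (chromosome 7, 74241725 to 74242225), at 3.91, 4.03 and 4.78 CPM in GFP high and 2.34, 1.46 and 2.28 CPM in GFP low. It did not overlap and changed by -1.08 ± 0.21 (adjusted p = 0.000348; loess -0.90). A peak 88.6 kb inside PRIM2 (chromosome 6, 57309940 to 57310440) went from 6.19, 4.37 and 4.54 CPM to 2.56, 2.88 and 2.72 CPM, a change of -0.87 ± 0.19 (adjusted p = 0.000966; loess -0.72). That peak lay at -4.6 kb from the outermost listed PRIM2 start.

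The RFC3 peak 37.6 kb inside the gene (chromosome 13, 33855456 to 33855956) held 4.90, 5.42 and 3.45 CPM in GFP high and 2.78, 3.24 and 2.11 CPM in GFP low. Its change was -0.76 ± 0.19 (adjusted p = 0.00262; loess -0.60), opposite to the start peak of the same gene. GINS1, 9.1 kb from an end inside the gene (chromosome 20, 25439253 to 25439753), held 8.30, 9.66 and 8.92 CPM in GFP high and 6.51, 5.83 and 6.59 CPM in GFP low (-0.51 ± 0.14, adjusted p = 0.00492; loess -0.42). MCM9, 2.9 kb outside the gene (chromosome 6, 118810322 to 118810822), held 13.6, 11.9 and 12.3 CPM in GFP high and 8.30, 9.74 and 9.03 CPM in GFP low (-0.48 ± 0.12, adjusted p = 0.004; loess -0.41). None of these 3 overlapped between the GFP levels.

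A peak 4.4 kb outside RPA1 (chromosome 17, 1904245 to 1904745) held 4.601, 5.76 and 7.15 CPM in GFP high and 4.17, 3.48 and 4.55 CPM in GFP low, just short of overlapping (-0.52 ± 0.17, adjusted p = 0.0171; loess -0.39, not called). The ORC3 peak 41.3 kb inside the gene (chromosome 6, 87636261 to 87636761) held 4.08, 4.37 and 3.70 CPM in GFP high and 1.32, 2.99 and 3.70 CPM in GFP low. It differed at 24 h and not at 72 h, and the call (-0.65 ± 0.24, adjusted p = 0.0308; loess -0.49, not called) rests on overlapping levels. The rise lay 29.4 kb outside ORC5 (chromosome 7, 104096651 to 104097151), from 1.68, 1.53 and 1.45 CPM to 3.44, 2.70 and 2.48 CPM, without overlap (0.88 ± 0.24, adjusted p = 0.00531; loess 1.09).

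By gene, 13 of the 44 had called peaks in the higher direction alone and 5 in the lower direction alone, namely ORC3, CDT1, GINS1, RFC2 and RPA1. MCM3, MCM5, GINS4, PRIM2, RFC3, RPA2 and MCM9 had both, 16 had peaks but no call, and 3 had no peak. The class of a gene depends also on how many peaks it held, and such counts over all genes are not given here. The sign of the difference was shared by the 3 times in 41 of the 46 called peaks. The exceptions were the ORC3 peak and peaks of POLD1, RPA2 and, with 2 peaks, RRM2. The calls were made from these same differences, so a shared sign gives them no separate support.

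Many replication genes have an end close to that of a neighbouring gene, and 18 peaks within 1 kb of an end of 13 of the 44 genes were assigned to the neighbour. Of these 8 were called higher and 1 lower, next to 34.4% and 4.24% of all gene-end peaks, with a median change of 0.18. The peak between ORC6 and VPS35 (chromosome 16, 46689012 to 46689512) gave 63.2, 67.9 and 56.7 CPM in GFP high and 84.4, 79.9 and 70.1 CPM in GFP low. It did not overlap and changed by 0.32 ± 0.06 (adjusted p = 0.000307; loess 0.12), more than the peak 0.5 kb inside ORC6 (0.09 ± 0.11, adjusted p = 0.528). The difference between these peaks was not tested.

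The peak over the PCNA start (chromosome 20, 5126646 to 5127146, assigned to CDS2) held 61.0, 60.1 and 59.1 CPM in GFP high and 72.7, 72.1 and 67.7 CPM in GFP low (0.24 ± 0.06, adjusted p = 0.00449; loess 0.05). Over the MCM7 start (assigned to AP4M1) the change was 0.24 ± 0.07 (adjusted p = 0.0112; loess 0.04), and over that of ORC3 (assigned to RARS2) 0.17 ± 0.05 (adjusted p = 0.0194; loess -0.07). The start peaks of MCM2 (0.19 ± 0.08, adjusted p = 0.0524), FEN1 (0.15 ± 0.08, adjusted p = 0.161), MCM8 (0.14 ± 0.08, adjusted p = 0.148) and RPA1 (0.15 ± 0.12, adjusted p = 0.358) were not called. The lower peak lay between an end of RFC2 and LAT2 (-0.68 ± 0.18, adjusted p = 0.00406; loess -0.54).

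Differences at a single time rest on 1 library of each GFP level and carry counting intervals, with no test. Among the 36 tallest own-end peaks GFP low was above GFP high in 34 at 24 h, 25 at 48 h and 35 at 72 h, with median log2 differences of 0.27, 0.10 and 0.18. The widest spread between times was at POLD1 and CDC45. POLD1 differed by 0.96 at 24 h (95% counting interval 0.73 to 1.20), -0.11 at 48 h (-0.31 to 0.10) and 0.20 at 72 h (-0.03 to 0.43). CDC45, with 13.9, 18.8 and 15.5 CPM in GFP high and 26.2, 16.03 and 17.6 CPM in GFP low, differed by 0.91, -0.23 and 0.18. A test of whether the GFP contrast changes linearly with time called 0 of the 149 peaks (edgeR; 9 at an unadjusted p under 0.05) and 0% of all peaks (4.69% at an unadjusted p under 0.05).

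**Figure D5:**
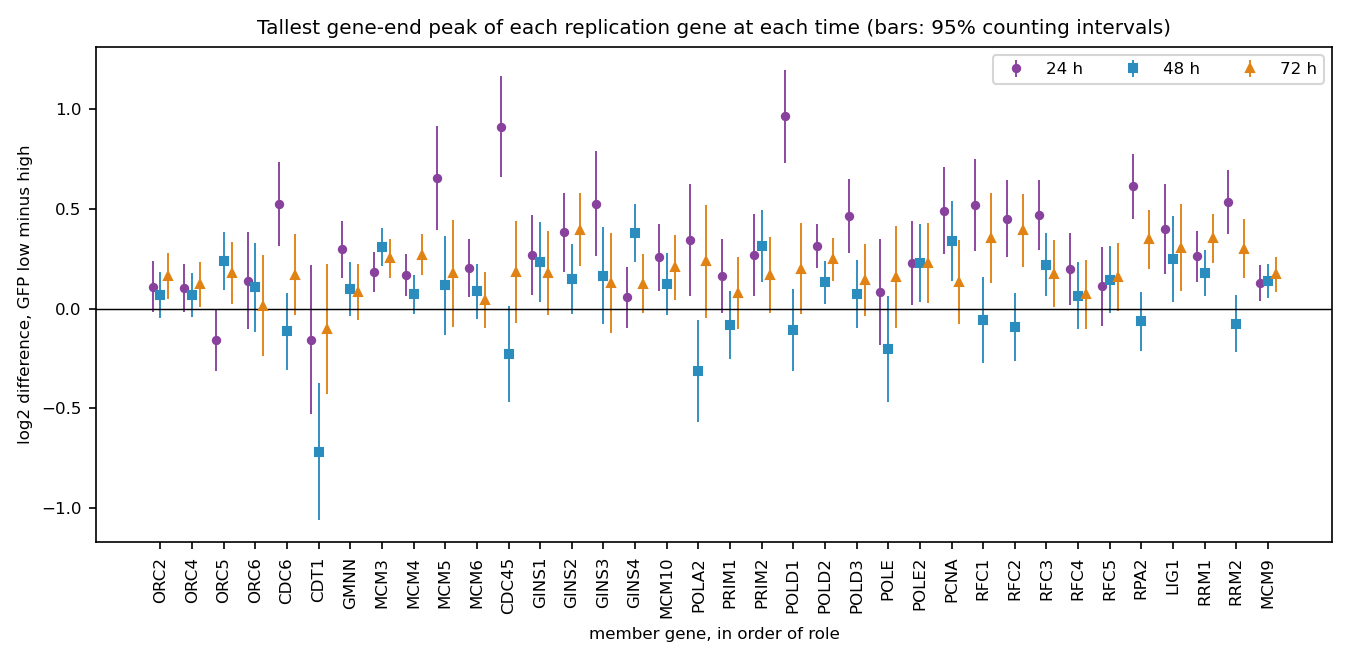
Log2 difference between GFP low and GFP high at 24, 48 and 72 h for the tallest gene-end peak of each replication gene, with 95% counting intervals that cover counting error only. At 48 h 25 of the 36 differences are above 0, fewer than the 34 at 24 h and 35 at 72 h, and POLD1 and CDC45 stand highest at 24 h.

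Differences of at least 2-fold at a single time were few and lay away from gene ends. At 24 h ORC3 and PRIM2 peaks were lower and 2 ORC5 peaks higher, at 48 h 2 RFC2 peaks were lower, and at 72 h 1 of those RFC2 peaks was. Over all peaks 8.16%, 3.85% and 3.83% were at least 2-fold lower at 24, 48 and 72 h, and 0.212%, 0.226% and 0.0911% higher.

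Change with time was asked next. With 72 h set against 24 h over both GFP levels, edgeR called 0 of the 149 peaks (10 at an unadjusted p under 0.05, smallest adjusted p 0.0857), and DESeq2 also called 0. All peaks gave 0.882% higher and 1.87% lower, and 11382 of the 71318 were at an unadjusted p under 0.05. Changes ran from -0.53 to 0.68, and among the tallest own-end peaks from -0.27 to 0.29.

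Further genes of the same processes were counted from lists. Kinases, firing factors and fork factors comprised 30 genes, 28 with a peak, and 16 of their 65 peaks were called higher and 9 lower. Within 1 kb of their own ends it was 12 and 1 of 36. For these and the following lists, all peaks gave 13.4% higher and 25.4% lower, and all gene-end peaks 34.4% and 4.24%. The peak of smallest p is given for each list, and the further ones were picked after their values were seen. TICRR, which brings activators to the loaded helicase, had a peak 1.4 kb from an end inside the gene that fell from 7.59 ± 1.12 to 3.01 ± 0.224 CPM (SD over times, n = 3). Its change was -1.33 ± 0.16 (edgeR adjusted p = 1.20e-06; loess -1.20). POLA1, the catalytic subunit of polymerase alpha, rose at its gene end by 0.37 ± 0.08 (adjusted p = 0.00100; loess 0.26, still called).

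Chromatin assembly genes, which package the new strands, had 8 of 29 peaks higher and 3 lower, and 7 and 1 of 15 at their own ends; the ASF1A peak rose by 0.22 ± 0.06 (adjusted p = 0.00387; loess 0.00, not called). Genes for nucleotide supply had 16 of 49 higher and 7 lower, with 12 and 0 of 22 at own ends. ATIC, an enzyme of purine synthesis, had a peak 20.9 kb inside the gene that fell by 0.64 ± 0.08 on the log2 scale (adjusted p = 2.29e-06; loess -0.76). TK1, thymidine kinase, rose at its own end by 0.42 ± 0.12 (adjusted p = 0.00633; loess 0.39). RB and E2F genes, the regulators of the G1/S programme, had 16 of 75 higher and 13 lower, with 9 and 0 of 27 at own ends. A peak 43.8 kb inside LIN54, a DNA-binding subunit of the MuvB complex, fell from 6.12 ± 1.25 to 2.34 ± 0.270 CPM (SD over times, n = 3), a change of -1.38 ± 0.18 (adjusted p = 3.11e-06; loess -1.24). The E2F1 peak changed by 0.37 ± 0.13 (adjusted p = 0.0323), but its levels overlapped and it was called neither with loess scaling (0.29) nor by DESeq2. Mitosis genes had 22 of 60 higher and 6 lower, with 15 and 0 of 28 at own ends; a peak 19.4 kb outside TTK, a kinase of the spindle checkpoint, changed by -1.19 ± 0.13 (adjusted p = 3.02e-07; loess -1.13). Medians at own ends ran from 0.17 for the kinase list to 0.22 for nucleotide supply, next to 0.18 for gene-end peaks of all genes.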

How the data were processed

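The authors deposited 1 table of raw read counts, not normalised, for 71318 peaks of 501 bp and 18 columns. The submitters' processing notes name BWA, FastQC, R 4.2.1 and deepTools, and the build hg38. Peak calling, duplicate removal and shifting of reads are not described in those notes. Each header names a GFP level with a D number (taken as 24, 48 or 72 h) and a V number that could not be tied to a replicate. Columns of a group differed by 1.78 to 1.81 times the counting variance in all 18 pairs, and columns of other times at the same GFP level by 2.21 to 3.47 times, so the 3 columns of a group, of 7106939 to 11171849 counts each, were summed to 1 library.

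All peaks were fitted together (R 4.3.3, edgeR 4.0.16) by a robust quasi-likelihood model of time plus GFP level after TMM scaling, with 2 residual and a median of 22.6 prior degrees of freedom. The p-values therefore rest largely on spread borrowed from other peaks. The filter on low counts removed 0 peaks, and all 149 peaks described here were tested. The prior count in log2 CPM was 2. For counting intervals (95%) the Poisson variance was inflated 1.80 times; they cover counting error only. Peaks took genes from 19951 RefSeq protein-coding genes on GRCh38.p14, after 105 readthrough genes were left out. Gene ends are within 1 kb of either end, since the table gives no strand; start positions and promoter sequences come from RefSeq for 38 of the 44 genes. Exons, introns and UTRs were not separated. The fit was tested on simulated data. Alternatives included DESeq2 1.42.0, loess scaling (limma 3.58.1), other filters and columns left out.

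The genes and the lists were chosen with earlier results of these data known. Genes given in full are, in each role, the 2 whose tallest own-end peak had the smallest p, and the 8 called peaks away from gene ends with the largest change, 1 per gene. Other genes named were chosen after their values were seen. A marker gene from the lists is not reported here.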

Additional observations from a re-analysis of the deposited data

How the results depend on the processing

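The counts of peaks called higher and lower both moved with DESeq2, with V numbers read as time and without the 72 h pair. That of peaks called higher moved also with loess scaling and the fits on 18 columns. The cause was not tested. Of 149 peaks 30 were called higher and 16 lower, with 19 higher at gene ends. DESeq2 called 12 higher and 10 lower, with 10 higher at gene ends; all 22 were among the calls above. Loess scaling called 15 higher, 9 of them among the 30, and 5 at gene ends; the median change of gene-end peaks came to 0.058. Leaving out the 2 libraries of 1 time, or the columns of 1 V number, gave 5 to 30 higher, 10 to 20 lower and 2 to 23 higher at gene ends, with the lowest values without the 72 h pair. With V numbers read as time the counts were 62, 30 and 41. DESeq2 size factors, total counts as scaling and either filter kept these counts within 1.5 times.

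With the 18 columns taken as libraries, 63 peaks were called higher, 42 of them at gene ends, and 72 h against 24 h called 7 higher and 6 lower; of all peaks 27.0% were called higher and 29.4% lower in GFP low, against 13.4% and 25.4% above. Adding a replicate block by V number within time gave 60 higher and 39 at gene ends. Whether V numbers pair columns is not known, and these fits set differences against the spread between columns of a group, 1.78 to 1.81 times the counting variance.

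The median difference of gene-end peaks at 24 h was 0.22, and came to 0.184 with total counts, 0.078 with loess scaling and 0.177 with V numbers read as time. At 48 h it was 0.080, and came to -0.0052 with loess scaling, 0.145 with V numbers read as time and 0.059 to 0.125 with columns of 1 V number left out. At 72 h it was 0.173, and 0.068 with loess scaling. Loess scaling turned the direction at the tallest own-end peaks of ORC2 (-0.10), ORC4 (-0.12), GMNN (-0.0085), MCM3 (-0.011), MCM4 (-0.082), POLD2 (-0.0055) and MCM9 (-0.13). Of these, MCM3, MCM4 and POLD2 lost their call, MCM9 was called lower, and ORC2, ORC4 and GMNN had not been called. Of the 25 peaks given in full, 8 that kept their direction also lost their call with loess scaling. With DESeq2 7 of the 25 lost it, and without the 72 h pair 12 did. Counting the peaks assigned to neighbours too, an alternative added after seeing the data, gave 39 higher and 17 lower. Depth limits the weakest peaks most: the ORC5 peak between genes, at a mean of 2.21 CPM, had a counting interval of 0.28 to 1.73 at 24 h.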
